A study of Homo sapiens with 24 samples.

Results

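Transient receptor potential (TRP) channels are cation channels of the cell membrane and of internal membranes. Different members open in response to temperature, plant compounds, lipid signals, calcium or emptied calcium stores. Most let calcium in, TRPM4 and its nearest relative pass only monovalent ions, and TRPM2 and TRPM7 carry an enzyme-like domain at the end of the channel. TRPM8, the cold and menthol receptor, is also known in the prostate, where its expression depends on androgen. TRPV6, a highly calcium-selective channel, is known for its expression in prostate cancer. Described here are 8 TRP genes, chosen by symbol: TRPM2, TRPM4, TRPM7, TRPM8, TRPV1, TRPV3, TRPV6 and TRPC1. All 8 were in the ligand tables, among 22227 genes, and in the siRNA tables, among 23028 genes, and all 8 passed the filters on low values. TRPM8 and TRPV6 were picked with their values in these data known, so their levels and fold changes are a description with no test. The other 6 were also chosen with earlier results known, and their calls are no independent evidence.

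The data are RNA-seq of LNCaP cells, an androgen-responsive line from a human prostate cancer metastasis. In the ligand experiment, cells received vehicle, 10 μM enzalutamide (an antiandrogen drug) or 10 nM DHT (dihydrotestosterone, a natural androgen), with either ligand given for 4 h or 24 h, with 2 replicates in each of the 5 conditions. The 4 vehicle samples, each titled as a replicate of its own, were taken as 2, because 3 of their columns are named replicate 1. No time is given for vehicle, so that 1 set of vehicle libraries served both times and all 4 comparisons with vehicle share it. In the siRNA experiment, cells were transfected with a non-targeting pool (siControl) or a pool against GATA2 (siGATA2), a zinc-finger transcription factor, and 72 h later were given enzalutamide at 25 μM, or vehicle, over 24 h, with 3 replicates in each of the 4 conditions. Every sample is the same line, so nothing here distinguishes 1 line from prostate cancer cells in general.

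Samples of the ligand experiment held between 38894876 and 59985287 estimated counts, the highest being the 3 summed columns of vehicle replicate 1. The relative depth of the siRNA libraries ran from 0.835 to 1.091. Each ligand column header starts with 1 of 3 prefixes, here called header sets, and what a prefix stands for is not stated. Both enzalutamide replicates of 4 h were in 1 header set and both of 24 h in another, each set with 1 DHT library of 24 h. The DHT libraries of 4 h were in the remaining set. All 3 sets had a column of vehicle replicate 1, against which within-set values are given. The LNCaP markers KLK3, HOXB13, FOLH1, TMPRSS2, KRT8 and KRT18 were at 17.6 RPKM or more in all siRNA libraries. Of the markers of other cell types, PTPRC, PECAM1, TP63, KRT5 and CHGA were at most 0.0295 RPKM, whereas COL1A1 was at 9.62 to 16.3 RPKM and SYP at 0.323 to 0.534 RPKM. Silencing was partial: the mean of GATA2, the targeted gene, was 51.4 RPKM in siGATA2 cells against 82.3 RPKM in siControl cells under vehicle, and 62.1 against 129 RPKM under enzalutamide. Bulk RNA cannot tell fewer expressing cells from less RNA per cell.

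The sequences just before the transcription start are shown for the TRP genes with the widest differences between conditions, because the study compares an androgen with an antiandrogen and silences GATA2. They are the 250 bases before the start in the reference (RefSeq, GRCh38.p14), written 5′ to 3′ on the gene's own strand. TRPM8 lies on the plus strand at chr2:233917123-233917372, before the most upstream of 6 listed starts, and TRPV6 on the minus strand at chr7:142885746-142885995, before its only listed start. Capitals mark every match on either strand to GATAA, the core that GATA factors recognise, which reads TTATC when it lies on the other strand. They also mark every match to AGAACA, a half-site shared by several steroid hormone receptors, which reads TGTTCT when it lies on the other strand. The motifs do not overlap each other here.

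TRPM8: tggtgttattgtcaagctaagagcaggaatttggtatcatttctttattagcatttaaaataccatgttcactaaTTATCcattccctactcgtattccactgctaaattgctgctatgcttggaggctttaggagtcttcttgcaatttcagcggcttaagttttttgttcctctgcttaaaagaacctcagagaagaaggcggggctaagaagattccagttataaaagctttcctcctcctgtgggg

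TRPV6: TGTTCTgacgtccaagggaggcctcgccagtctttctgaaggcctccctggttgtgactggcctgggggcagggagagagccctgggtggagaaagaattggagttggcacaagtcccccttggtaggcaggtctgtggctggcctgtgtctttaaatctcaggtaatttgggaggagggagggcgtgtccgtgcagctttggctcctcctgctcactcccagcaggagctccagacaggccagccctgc

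The TRPM8 window had 1 match to GATAA and 0 to AGAACA, and the TRPV6 window had 0 to GATAA and 1 to AGAACA, at its far end. Among windows before the other listed TRPM8 starts, not printed here, that from 233929433 had 1 match to GATAA. The window from 233979899 had 1 match to AGAACA. Among 35116 windows of the same length, 20.4% held GATAA and 12.4% held AGAACA, so either match is common. A match is a stretch of letters and not a measured binding site.

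TRPM8 had the widest range of the 8 genes. The gene lies on chromosome 2 from 233917398 to 234019522, plus strand (GRCh38, GENCODE release 29). Its level was 1.67 and 1.19 CPM (counts scaled to library size after TMM adjustment) in vehicle and 1.10 and 1.58 CPM after 4 h of enzalutamide, and these overlapped. It was 0.394 and 0.403 CPM after 24 h of enzalutamide, below every other library. With DHT it was 5.43 and 5.04 CPM at 4 h and 18.2 and 17.9 CPM at 24 h, above every library of vehicle or enzalutamide, and the libraries of the later time were above those of the earlier.

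Against vehicle, TRPM8 was 12.3-fold higher at 24 h of DHT (log2 fold change 3.62, standard error 0.145) and 3.56-fold higher at 4 h (1.83, standard error 0.157). It was 3.66-fold lower at 24 h of enzalutamide (log2 fold change -1.87, standard error 0.247), and at 4 h the log2 fold change was -0.11 (standard error 0.196). Between DHT and enzalutamide at 24 h the levels differed 45.1-fold (log2 fold change 5.49, standard error 0.179). Against the vehicle column of the same header set the log2 ratios were 3.41 and 3.45 after 24 h of DHT and 1.68 and 1.57 after 4 h of DHT. They were -1.99 and -1.96 after 24 h of enzalutamide, and -0.61 and -0.10 after 4 h of enzalutamide. These rest on 101 and 47 estimated counts in vehicle, 20 and 20 at 24 h of enzalutamide, and 996 and 704 at 24 h of DHT. Leaving out 1 library turned the sign at 4 h of enzalutamide, where the log2 fold change then lay between -0.42 and 0.18, being 0.18 without vehicle replicate 1.

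In the siRNA experiment TRPM8 was 0.293, 0.249 and 0.272 RPKM (reads scaled to gene length and library size) with siControl and vehicle and 0.0762, 0.0688 and 0.117 RPKM with siControl and 25 μM enzalutamide. With siGATA2 it was 0.00519, 0.0104 and 0.0122 RPKM in vehicle and 0.0185, 0.0103 and 0.00486 RPKM in enzalutamide. The siControl groups did not overlap each other, all 6 siGATA2 libraries were below all 6 siControl libraries, and the siGATA2 groups overlapped. The means stood at 3.41% of siControl for siGATA2 in vehicle and 12.8% in enzalutamide, and enzalutamide with siControl stood at 32.1% of vehicle.

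The siGATA2 values of TRPM8 are close to 0. They are given here in steps, for which each value was multiplied by the relative depth of its library. A step is that product for siGATA2 vehicle replicate 1. Fractions of a step also occur, so a step need not be the smallest unit of this gene. Counted in such steps, the libraries held 45.0 to 58.0 with siControl and vehicle and 11.99 to 24.5 with siControl and enzalutamide. With siGATA2 they held 1.0 to 2.5 in vehicle and 1.0 to 4.0 in enzalutamide. A step was then taken as 1 read, rounded to whole steps in each library and summed over the group. The ratio of siControl to siGATA2 in vehicle was 32 (95% exact interval 13.4 to 99.9), from 151 and 5 steps. In enzalutamide it was 7.67 (3.46 to 20.0), from 50 and 7 steps. The unrounded ratio of mean RPKM in vehicle was 29.3. For siGATA2 the ratio of vehicle to enzalutamide was 0.746 (0.187 to 2.73), and for siControl it was 3.11 (2.24 to 4.37). These intervals describe counting error only and are no test of the gene. On the log2(RPKM + 0.1) scale used for the other genes, the siGATA2 differences of TRPM8 were -1.76 in vehicle and -0.74 in enzalutamide (standard error 0.0943 each), which understates a change this close to 0.

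**Figure D1:**
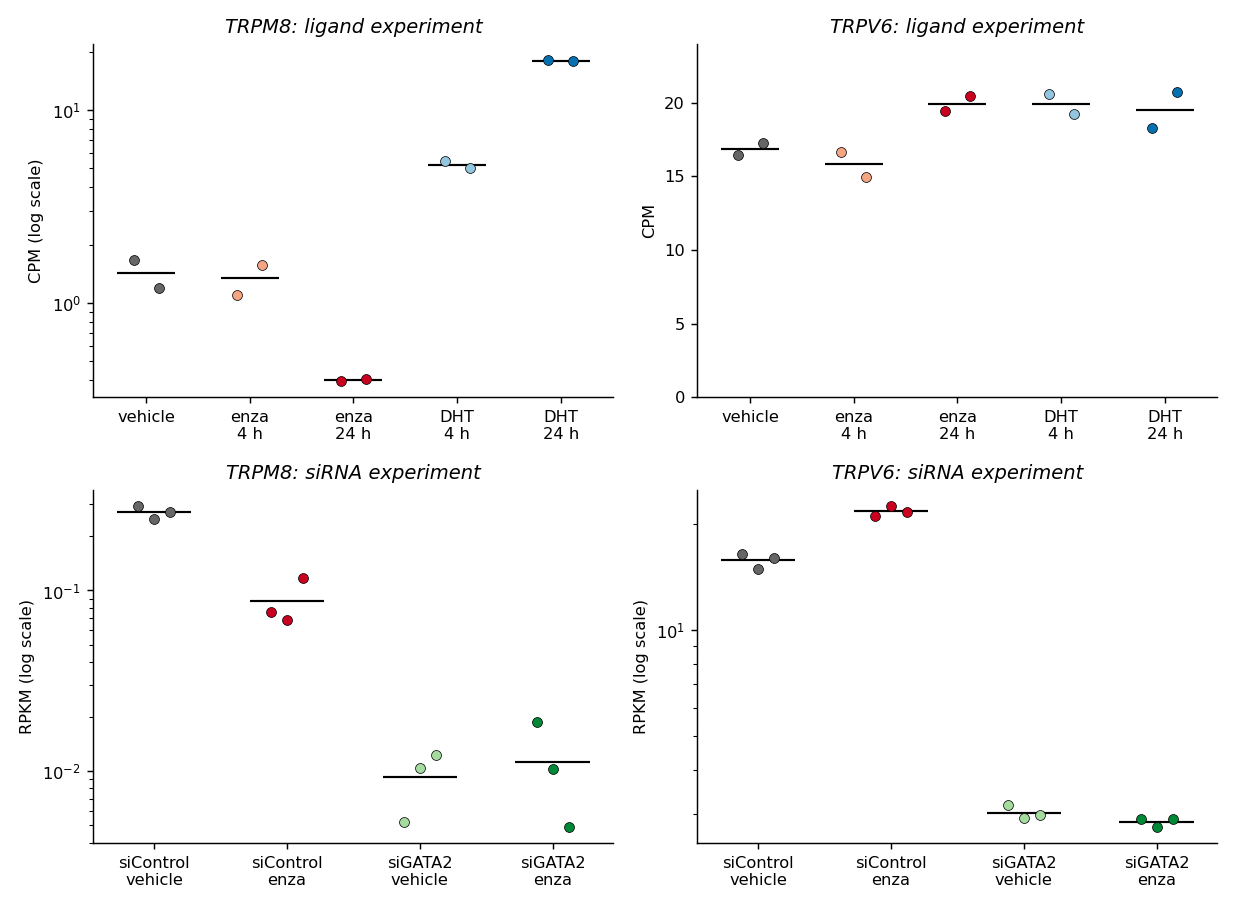
Levels of TRPM8 (left) and TRPV6 (right) in every library, as CPM in the ligand experiment (top) and RPKM in the siRNA experiment (bottom), with log axes except for TRPV6 in CPM. Points are libraries (n = 2 top, n = 3 bottom), bars are means and enza is enzalutamide: TRPM8 runs from 0.394 CPM at 24 h of enzalutamide to 18.2 CPM at 24 h of DHT, while TRPV6 stays between 15.0 and 20.7 CPM and separates by siRNA.

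TRPV6, on chromosome 7 from 142871203 to 142885762 (minus strand), differed little between the ligands and widely between siControl and siGATA2 cells. The mean of TRPV5, its close neighbour and paralog with which reads can be shared, was 0.0940 RPKM in siControl cells with vehicle, against 15.8 RPKM for TRPV6. TRPV6 was 16.5 and 17.3 CPM in vehicle, 16.7 and 15.0 CPM at 4 h of enzalutamide, 19.4 and 20.5 CPM at 24 h of enzalutamide, 20.6 and 19.3 CPM at 4 h of DHT, and 18.3 and 20.7 CPM at 24 h of DHT. The libraries at 24 h of enzalutamide and at both times of DHT were above vehicle, and those at 4 h of enzalutamide overlapped it. The log2 fold changes against vehicle were 0.25 (enzalutamide 24 h), 0.24 (DHT 4 h), 0.21 (DHT 24 h) and -0.09 (enzalutamide 4 h), with standard errors from 0.0748 to 0.0777. DHT and enzalutamide at 24 h differed by -0.04 on the log2 scale (standard error 0.0746), where TRPM8 differed by 5.49.

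With siControl, TRPV6 was 16.5, 14.9 and 16.0 RPKM in vehicle and 21.2, 22.5 and 21.7 RPKM in enzalutamide. With siGATA2 it was 3.18, 2.92 and 2.96 RPKM in vehicle and 2.89, 2.74 and 2.89 RPKM in enzalutamide. Every siGATA2 library was far below every siControl library. The log2 difference of siGATA2 from siControl was -2.35 in vehicle and -2.90 in enzalutamide (standard error 0.0463 each), which left 19.1% and 13% of the mean RPKM. Enzalutamide gave 0.46 in siControl cells and -0.08 in siGATA2 cells (standard error 0.0463 each), and in each case every treated library lay on the same side of every vehicle library, in opposite directions. TRPV6 went from the second most abundant of the 8 channel RNAs per length in siControl cells to the fourth in siGATA2 cells, below TRPM7 and TRPM2.

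The genes whose log2 CPM followed TRPM8 most closely over the 10 ligand samples, out of 12354 genes with an average log2 CPM of at least 1, were GPR158 (Pearson r = 0.991), MPHOSPH9 (0.989), KLK3 (0.988), SAP30 (0.987) and HAUS3 (0.986). The 10 points share 5 conditions of 2 libraries and their depth, so the r is a description. KLK3, which encodes prostate-specific antigen, was 254 to 260 CPM in vehicle, 109 to 111 CPM at 24 h of enzalutamide, and 2095 to 2139 CPM at 24 h of DHT. In the siRNA experiment its mean in siControl cells was 791 RPKM under vehicle and 286 RPKM under enzalutamide, and in siGATA2 cells 24.1 and 18.5 RPKM. GPR158, a G protein-coupled receptor, was 14.4 and 13.3 CPM in vehicle and 44.4 and 45.2 CPM at 24 h of DHT. For TRPV6 the closest were LINC01145 (0.909), DCAF8 (0.893), ADAP2 (0.856), SLC10A7 (0.854) and SH3D21 (0.847), over a range of TRPV6 itself from only 15.0 to 20.7 CPM.

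The remaining 6 channels are given with calls, meaning a Benjamini-Hochberg adjusted p below 0.05 over all genes tested (edgeR's quasi-likelihood test for the ligand experiment, limma for the siRNA experiment). At 4 h of enzalutamide 2 of the 6 were called, where 13.6% of all 15555 genes were, and at 24 h again 2 of 6, where 33.4% of all genes were. With DHT at 4 h edgeR called 0 of the 6, where 6.77% of all genes were called, although 2 (TRPM7 and TRPM2) had an unadjusted p below 0.05, and DESeq2 also called 0. With DHT at 24 h 3 of the 6 were called, where 50.0% of all genes were. DHT against enzalutamide gave 1 of 6 at 4 h (15.8% of all genes) and 4 of 6 at 24 h (64.9%). The 24 h libraries against those of 4 h gave 3 of 6 for DHT (49.8% of all genes). For enzalutamide they gave 0 of 6 with edgeR (24.6% of all genes), 0 with DESeq2 and 0 with an unadjusted p below 0.05.

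TRPM2, a calcium channel opened by ADP-ribose and by oxidative stress, passed the test in 6 of the 8 comparisons of the ligand experiment. Its level was 43.3 and 44.4 CPM in vehicle, 36.2 and 33.2 CPM at 4 h of enzalutamide, 36.5 and 36.2 CPM at 24 h of enzalutamide, 40.4 and 39.9 CPM at 4 h of DHT and 61.2 and 65.6 CPM at 24 h of DHT. The DHT libraries at 24 h were above all others and the enzalutamide libraries below all others. TRPM2 fell with enzalutamide by 0.34 on the log2 scale at 4 h (standard error 0.0535, adjusted p = 0.00139, edgeR) and by 0.27 at 24 h (standard error 0.0529, adjusted p = 0.00165, edgeR). It rose by 0.53 at 24 h of DHT (standard error 0.0514, adjusted p = 1.95e-06, edgeR), and its log2 fold change at 4 h of DHT was -0.13 (adjusted p = 0.202, edgeR). At 24 h the ligands differed by 0.80 (standard error 0.0520, adjusted p = 1.75e-08, edgeR) and at 4 h by 0.21 (adjusted p = 0.017, edgeR). The latter was lost with the header set as a term of the model (adjusted p = 0.499, edgeR), without DHT 4 h replicate 1, without DHT 4 h replicate 2 and without enzalutamide 4 h replicate 2. Within the same set the log2 ratios to vehicle were -0.27 and -0.40 at 4 h of enzalutamide, -0.16 and -0.17 at 24 h of enzalutamide, and 0.49 and 0.69 at 24 h of DHT.

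TRPM2 lies on chromosome 21 from 44350163 to 44443081 (plus strand), and the antisense gene TRPM2-AS lies inside it from 44414588 to 44425272. Whether the counting used strand is not stated, so reads from the pair may not be told apart. TRPM2-AS had a mean of 6.51 CPM in vehicle and 5.29 CPM at 24 h of DHT, a log2 fold change of -0.31 (adjusted p = 0.0298, edgeR), and 0.19 and 0.14 at 4 h and 24 h of enzalutamide (adjusted p = 0.261 and 0.357, edgeR).

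TRPM7, a magnesium- and calcium-permeable channel fused to a kinase, was higher with both ligands. It was 120 and 116 CPM in vehicle, 132 and 147 CPM at 4 h of enzalutamide, 141 and 142 CPM at 24 h of enzalutamide, 131 and 129 CPM at 4 h of DHT and 132 and 128 CPM at 24 h of DHT. Every ligand library was above both vehicle libraries. TRPM7 rose with enzalutamide by 0.24 at 4 h (standard error 0.0468, adjusted p = 0.00486, edgeR) and 0.27 at 24 h (standard error 0.0466, adjusted p = 0.000722, edgeR), and by 0.14 at 24 h of DHT (standard error 0.0468, adjusted p = 0.0247, edgeR). At 4 h of DHT the value was 0.14 with an adjusted p of 0.103 (edgeR), which passed without enzalutamide 4 h replicate 1 (0.0129) or enzalutamide 4 h replicate 2 (0.0122). At 4 h DHT and enzalutamide differed by -0.10 (adjusted p = 0.173, edgeR), or 0.00731 without enzalutamide 4 h replicate 1. The rise at 24 h of DHT was lost without vehicle replicate 2, without DHT 24 h replicate 1 or without DHT 24 h replicate 2. It was also lost with plain library size in place of TMM factors (adjusted p = 0.147, edgeR) and with the header set as a term (0.148). At 24 h TRPM7 was lower with DHT than with enzalutamide by a log2 fold change of -0.13 (adjusted p = 0.0284, edgeR), a call lost with DESeq2 (adjusted p = 0.101) and without vehicle replicate 2 or any 1 of the DHT or 24 h enzalutamide libraries (0.0501 to 0.169, edgeR). Within the same set the log2 ratios of TRPM7 to vehicle were 0.11 and 0.26 at 4 h of enzalutamide, 0.23 and 0.24 at 24 h of enzalutamide, and 0.10 and 0.09 at 24 h of DHT.

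TRPC1, a subunit of channels linked to store-operated calcium entry, was weak. It was 0.694 and 0.482 CPM in vehicle, 0.729 and 0.851 CPM at 4 h of enzalutamide, 0.848 and 0.908 CPM at 24 h of enzalutamide, 0.660 and 0.372 CPM at 4 h of DHT and 0.201 and 0.331 CPM at 24 h of DHT. The 24 h DHT libraries were the lowest of all and rest on 11 and 13 estimated counts. TRPC1 fell at 24 h of DHT by 1.23 on the log2 scale (standard error 0.371, adjusted p = 0.0144, edgeR), a call that was lost without DHT 24 h replicate 1 (-0.86, adjusted p = 0.158) or without vehicle replicate 1 (-0.90, adjusted p = 0.163), and with DESeq2 (adjusted p = 0.0684). Within the same set the log2 ratios to vehicle were -2.05 and -0.72. Between the ligands at 24 h it differed by -1.76 (standard error 0.347, adjusted p = 0.000575, edgeR), and this call held under all alternatives, with adjusted p up to 0.0168. With enzalutamide at 24 h the log2 fold change was 0.54 (standard error 0.289, adjusted p = 0.177, edgeR).

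TRPM4, a calcium-activated sodium and potassium channel that lets no calcium through, was 90.4 and 94.0 CPM in vehicle and 79.5 to 93.9 CPM elsewhere. It passed no comparison with vehicle, the closest being enzalutamide at 24 h (log2 fold change -0.13, adjusted p = 0.0614, edgeR), which passed without enzalutamide 4 h replicate 1 (0.0163) or enzalutamide 4 h replicate 2 (0.0104) and with DESeq2 (0.0347), RLE factors (0.0336), no filter on low counts (0.0258), only the groups compared (0.0116) or separate vehicle columns (0.0226). At 4 h of enzalutamide it was -0.14 (adjusted p = 0.0788, edgeR) and passed without enzalutamide 4 h replicate 1 (0.00542), with no filter (0.0308) or with separate vehicle columns (0.0318). It was higher with DHT than with enzalutamide at 24 h by 0.15 (standard error 0.0483, adjusted p = 0.0153, edgeR), or 0.09 with plain library size (adjusted p = 0.134), and it did not pass without enzalutamide 24 h replicate 2 (0.0725, edgeR). TRPV1, the heat and capsaicin receptor, stayed between 5.69 and 6.55 CPM with no call, and its gene overlaps SHPK on the same strand, so shared reads are uncertain. TRPV3, a warmth-sensitive channel of skin, was 0.182 and 0.432 CPM in vehicle and 0.0941 and 0.101 CPM at 4 h of enzalutamide, which is 4.0 and 4.53 estimated counts against 11.0 and 17.0, and its log2 fold change of -1.51 (standard error 0.533) did not pass (adjusted p = 0.0811, edgeR), except without vehicle replicate 1 (-2.12, adjusted p = 0.0309). Without vehicle replicate 2 it was -0.88 (adjusted p = 0.437, edgeR), and within the same set the log2 ratios to vehicle were -0.65 and -0.56.

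**Figure D2:**
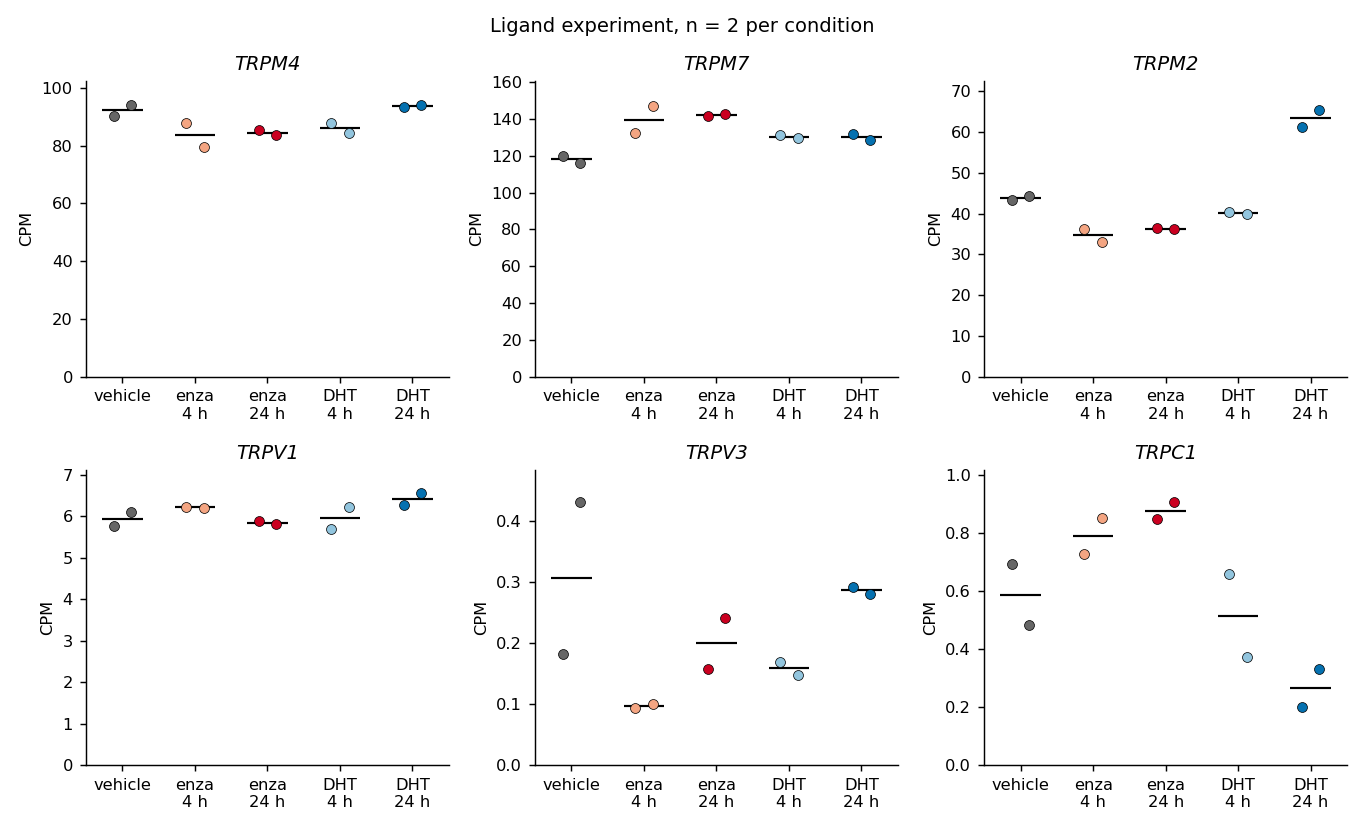
CPM of the other 6 TRP genes in every library of the ligand experiment, each axis starting at 0, with points for libraries (n = 2 per condition) and bars for means (enza is enzalutamide). TRPM2 is highest at 24 h of DHT (61.2 and 65.6 CPM), TRPC1 is lowest there (0.201 and 0.331 CPM), and TRPM4 and TRPV1 vary little.

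At 25 μM enzalutamide in siControl cells 5 of the 6 were called, where 42.1% of all 20369 genes were. TRPM4 was 27.97, 25.3 and 28.7 RPKM in vehicle and 33.7, 36.3 and 34.2 RPKM in enzalutamide, and TRPC1 was 0.487, 0.536 and 0.567 RPKM in vehicle and 0.889, 0.807 and 0.762 RPKM in enzalutamide. Neither pair of groups overlapped. TRPM4 rose by 0.35 (standard error 0.0606, adjusted p = 0.00098, limma) and TRPC1 by 0.54 (standard error 0.0813, adjusted p = 0.000342, limma). The 3 that fell were TRPV1 by 0.63, TRPM2 by 0.35 and TRPV3 by 0.29, and the adjusted p values were 0.000223, 0.000716 and 0.0173 (limma). TRPV1 went from 1.35, 1.28 and 1.21 RPKM to 0.784, 0.841 and 0.754 RPKM, with no overlap. TRPM2 went from 5.16, 4.50 and 5.31 RPKM to 3.95, 3.93 and 3.77 RPKM, also with no overlap. The fall of TRPV3 was lost without siControl vehicle replicate 1 (adjusted p = 0.0632, limma) or without siControl enzalutamide replicate 2 (0.0629). TRPM7, called in the ligand experiment, was at -0.03 here (adjusted p = 0.698, limma).

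The experiments differed in dose, transfection and unit, so their values are only set side by side. For enzalutamide at 24 h, 10 μM without transfection gave TRPM2 -0.27, TRPC1 0.54, TRPM4 -0.13, TRPM7 0.27 and TRPV1 -0.02 on the log2 scale. The 25 μM treatment of siControl cells gave TRPM2 -0.35, TRPC1 0.54, TRPM4 0.35, TRPM7 -0.03 and TRPV1 -0.63. TRPM2 was called lower in both, TRPM4 had opposite signs, and TRPC1, at 0.54 in both, passed the test in the siRNA experiment and not in the ligand experiment.

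In siGATA2 cells 0 of the 6 responses to enzalutamide were called (limma), where 0.412% of all genes were, and 1 of the 6 had an unadjusted p below 0.05, TRPM2 (log2 fold change -0.14, adjusted p = 0.444, limma). The difference between the responses, tested as an interaction, was called for 3 of the 6, where 25.8% of all genes were. The response of TRPM4 was lower in siGATA2 cells by a log2 difference of -0.35 (standard error 0.0857, adjusted p = 0.0134, limma), and that of TRPC1 by -0.48 (standard error 0.115, adjusted p = 0.0124, limma). For TRPV1 it was higher by 0.56 (standard error 0.124, adjusted p = 0.00841, limma), the fall of siControl cells being replaced by a log2 fold change of -0.07. TRPM2, TRPM7 and TRPV3 did not pass, with interaction values of 0.21, 0.14 and 0.24 (adjusted p = 0.0852, 0.217 and 0.16, limma). TRPM2 passed without siControl vehicle replicate 2 (adjusted p = 0.00764) and TRPM7 without siGATA2 vehicle replicate 3 (0.0243).

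Silencing GATA2 in vehicle changed 4 of the 6, where 55.6% of all genes were called. TRPC1 rose by 0.70 (standard error 0.0813, adjusted p = 2.61e-05, limma), from a mean of 0.530 to 0.926 RPKM. TRPV1 fell by 0.38 (adjusted p = 0.00363, limma) and TRPM2 by 0.36 (adjusted p = 0.000329, limma). TRPM7 fell by 0.16 (adjusted p = 0.027, limma), a call lost without siGATA2 vehicle replicate 1 (0.103) or siGATA2 vehicle replicate 2 (0.0936), without siControl vehicle replicate 1 (0.0571) or siControl vehicle replicate 2 (0.0899), and with libraries scaled to 1 median (0.189). TRPM4 and TRPV3 were at -0.04 and -0.13 (adjusted p = 0.639 and 0.22, limma). Under enzalutamide 2 of the 6 were called, where 54.5% of all genes were: TRPM4 fell by 0.39 (standard error 0.0606, adjusted p = 0.000261, limma), and TRPC1 rose by 0.23 (standard error 0.0813, adjusted p = 0.0352, limma). With the replicate number as a block TRPC1 did not pass (adjusted p = 0.0598, limma), nor without siControl enzalutamide replicate 2 (0.0851), siControl enzalutamide replicate 3 (0.12), siGATA2 enzalutamide replicate 1 (0.0986) or siGATA2 enzalutamide replicate 3 (0.0945). TRPM2 was at -0.15 (adjusted p = 0.0551, limma) and passed without siControl vehicle replicate 2 (0.00945) or siControl vehicle replicate 3 (0.043). The comparisons in vehicle and in siControl share the siControl vehicle libraries.

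**Figure D3:**
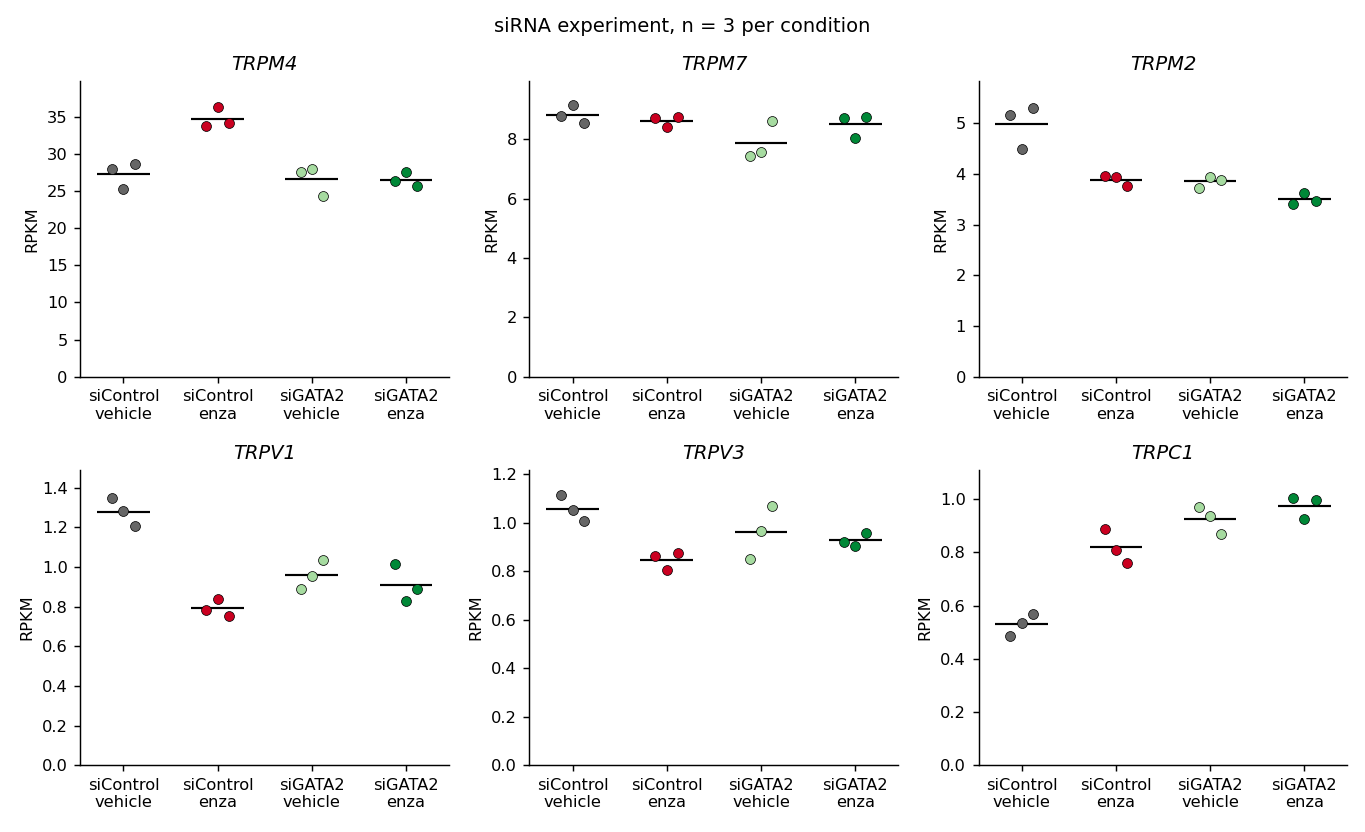
RPKM of the other 6 TRP genes in every library of the siRNA experiment, each axis starting at 0, with points for libraries (n = 3 per condition) and bars for means (enza is enzalutamide). In siControl cells enzalutamide libraries lie above vehicle for TRPM4 and TRPC1 and below it for TRPM2, TRPV1 and TRPV3, and in siGATA2 cells the same treatments overlap for TRPM4, TRPM7, TRPV1, TRPV3 and TRPC1.

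**Figure D4:**
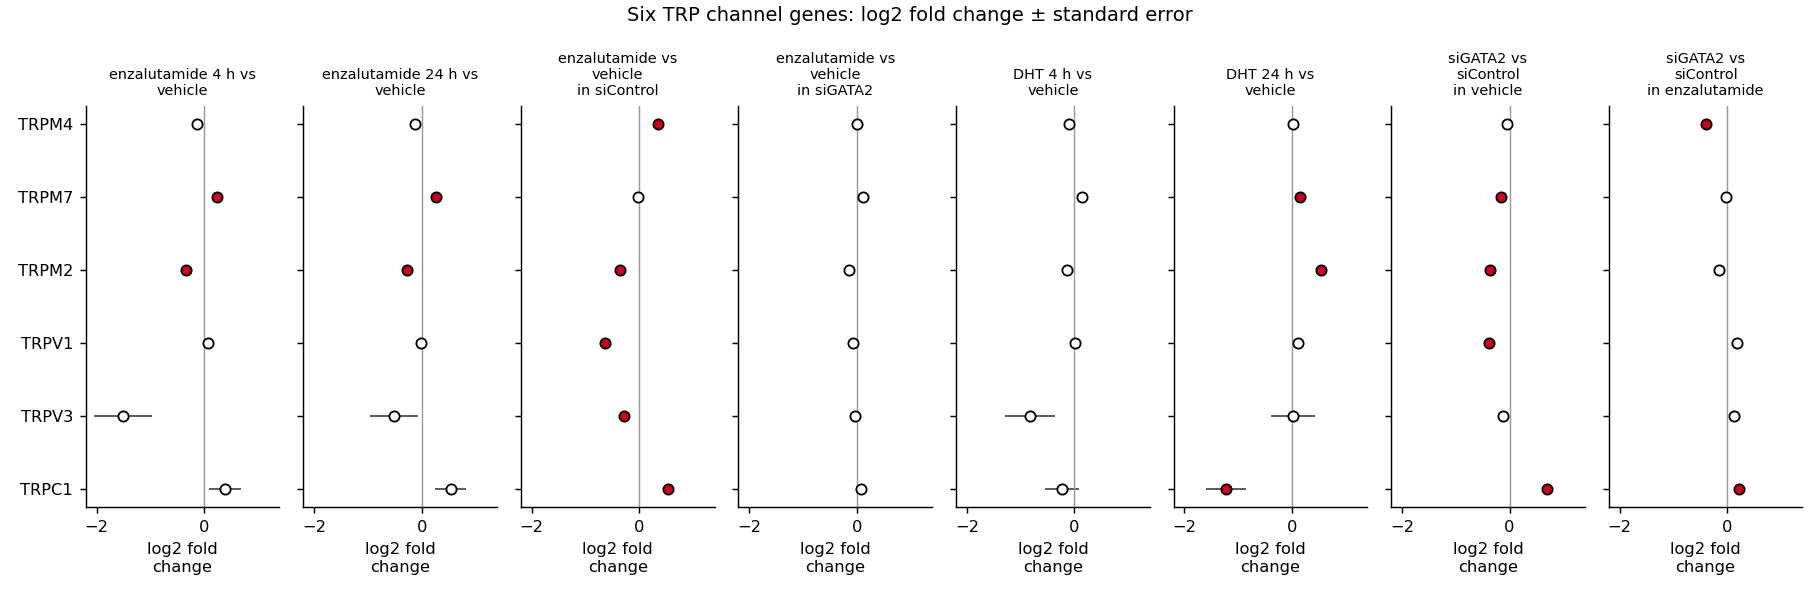
Log2 fold changes (x axis) of the 6 tested TRP genes in 8 comparisons, with standard errors as bars. Red points have an adjusted p below 0.05 over all genes (edgeR for the ligand experiment, limma for the siRNA experiment) and white points do not; no red point appears for enzalutamide in siGATA2 cells.

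Per length, the order of the 8 in siControl cells with vehicle was TRPM4 (27.3 RPKM ± 1.76, SD, n = 3), TRPV6 (15.8 ± 0.81), TRPM7 (8.83 ± 0.302), TRPM2 (4.99 ± 0.431), TRPV1 (1.28 ± 0.0718), TRPV3 (1.06 ± 0.0540), TRPC1 (0.530 ± 0.0401) and TRPM8 (0.271 ± 0.0223). Each was above the next in every library. With enzalutamide and with siGATA2, TRPV1, TRPV3 and TRPC1 drew together and their neighbours overlapped, at means of 0.793 to 0.975 RPKM. TRPM4 was above 87.7% of all tested genes in siControl cells with vehicle and TRPV6 above 79.2%, whereas TRPM8 was above 31.5%.

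Of the other 19 TRP family genes, 4 passed the filter in the ligand experiment (TRPM5, MCOLN1, MCOLN2 and PKD2), and the other 15 were at most 0.112 CPM. At 24 h of DHT 2 of the 4 rose and 1 fell, where 50.0% of all genes were called. MCOLN1 and MCOLN2, channels of lysosomes and endosomes, rose by 0.32 and 0.41 (adjusted p = 0.0164 and 0.00222, edgeR), and PKD2, a channel of cilia and the endoplasmic reticulum, fell by 0.40 (adjusted p = 7.38e-05, edgeR). At 24 h of enzalutamide, where 33.4% of all genes were called, 1 of the 4 was, PKD2, with a rise of 0.17 (adjusted p = 0.0374, edgeR) that DESeq2 did not call, and at 4 h of either ligand 0 of the 4 were (edgeR), where 13.6% of all genes were called with enzalutamide and 6.77% with DHT, with an unadjusted p below 0.05 for 1 of them with enzalutamide and for 2 with DHT, and DESeq2 called 0 at 4 h of either. The median log2 fold change at 24 h of DHT was 0.01 for these 4 and 0.001 for all genes.

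In the siRNA experiment 17 of the 19 could be tested. Enzalutamide in siControl cells lowered 5 and raised 0, where 42.1% of all genes were called, a larger share than 5 of 17. The largest of these changes was that of MCOLN1, which fell by 0.97 from a mean of 5.48 to 2.74 RPKM (adjusted p = 1.15e-06, limma). MCOLN2 fell by 0.24 and PKD2 by 0.16 (adjusted p = 0.0303 and 0.0238, limma). TRPV5 (-0.55) and TRPM6 (-0.18) were also called lower (adjusted p = 0.00789 and 0.00267, limma), at means no higher than 0.0940 RPKM. In siGATA2 cells 0 of the 17 responses were called (limma), where 0.412% of all genes were, with 0 at an unadjusted p below 0.05, and the response of MCOLN1 differed between the cells by 0.85 (adjusted p = 0.000103, limma). SiGATA2 in vehicle, where 55.6% of all genes were called, raised PKD2 by 0.61 and TRPM5 by 0.59 (adjusted p = 1.6e-06 and 0.000939, limma), and lowered MCOLN2 by 0.78, MCOLN1 by 0.45, TRPV5 by 0.38 and TRPM6 by 0.19 (adjusted p = 9.69e-06, 0.000129, 0.0367 and 0.00158, limma). Under enzalutamide, where 54.5% of all genes were called, it raised PKD2 by 0.79, TRPM5 by 0.69 and MCOLN1 by 0.41, and lowered MCOLN2 by 0.57.

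A list of 34 partners of these channels held regulators of TRPM8 and TRPV6, store-operated channels and calcium pumps, and 29 of them were tested in the ligand experiment. At 24 h of DHT 10 rose and 7 fell, where 50.0% of all genes were called, with a median log2 fold change of 0.02 against 0.001 for all genes. At 24 h of enzalutamide 7 rose and 7 fell, where 33.4% of all genes were called. At 4 h DHT raised 2 and lowered 1 (6.77% of all genes were called), and enzalutamide raised 3 and lowered 1 (13.6%). TCAF1 and TCAF2 encode proteins that bind TRPM8 and alter its traffic to the membrane. TCAF1 was abundant, with a mean of 216 CPM in vehicle and 216 CPM at 24 h of DHT, and was called with neither ligand against vehicle. TCAF2, with 0.60 CPM in vehicle, rose by 1.21 at 24 h of DHT (standard error 0.309, adjusted p = 0.00553, edgeR). KL encodes klotho, known for raising TRPV5 at the cell surface. Its vehicle mean of 0.0667 CPM was near the floor. It was at most 0.101 CPM in the vehicle and enzalutamide libraries and 0.509 to 0.896 CPM with DHT. The log2 fold changes were 2.91 at 4 h and 3.63 at 24 h of DHT. KL passed the filter on low counts only through the DHT libraries, where it was high. No p is therefore given for its rise, although KL is among the genes counted as raised at both times.

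Of the store-operated genes, ORAI1, the pore subunit, rose by 0.60 at 24 h of DHT (adjusted p = 6.26e-05, edgeR), while its relatives ORAI2 and ORAI3 fell by 0.47 and 0.55 (adjusted p = 1.59e-05 and 5.06e-05, edgeR). At 24 h of enzalutamide all 3 went the other way, ORAI1 by -0.27 and ORAI2 and ORAI3 by 0.22 and 0.20 (adjusted p = 0.0363, 0.00773 and 0.0463, edgeR). The calcium sensors STIM1 and STIM2 were called with neither ligand at 24 h, and STIM2 rose by 0.27 at 4 h of enzalutamide (adjusted p = 0.0108, edgeR). Of the calcium pumps on the list, ATP2B1 and ATP2A3 fell at 24 h of DHT by 1.07 and 2.16 (adjusted p = 5.44e-09 and 0.00961, edgeR). ATP2A3 was near the floor, with means of 0.343 CPM in vehicle and 0.0640 CPM at 24 h of DHT. The abundant pump ATP2A2 (means of 560 and 599.5 CPM) was called higher in the same comparison, and ATP2B4 was not called.

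In siControl cells enzalutamide raised 5 and lowered 13 of the 31 partners tested, where 42.1% of all genes were called, with a median of -0.11 against -0.023 for all genes. ORAI1 fell by 0.23 (adjusted p = 0.00354, limma) and ORAI2 and ORAI3 rose by 0.23 and 0.42 (adjusted p = 0.0207 and 0.00015, limma). TCAF1 rose by 0.20 (adjusted p = 0.00318, limma) and TCAF2 fell by 0.52 (adjusted p = 3.8e-05, limma). TCAF2 was low, with means of 0.182 RPKM in vehicle and 0.0971 RPKM in enzalutamide, against 7.60 and 8.72 RPKM for TCAF1. In siGATA2 cells 0 of the 31 responses were called (limma), where 0.412% of all genes were, and 4 had an unadjusted p below 0.05. SiGATA2 in vehicle raised 15 and lowered 11, where 55.6% of all genes were called. Among them were STIM1, which rose by 0.60 (adjusted p = 3.06e-08, limma), TCAF2, which fell by 0.69, and TCAF1, which fell by 0.24 (adjusted p = 1.56e-06 and 0.000455, limma). The mean of TCAF2 in siGATA2 cells with vehicle was 0.0743 RPKM. S100A10, an annexin partner that carries TRPV5 and TRPV6 to the membrane, fell by 1.12 (adjusted p = 0.000127, limma). ANXA2, the annexin on the partner list, was near absent, with a mean of 0.0382 RPKM in siControl cells with vehicle. Under enzalutamide siGATA2 raised 12 and lowered 8, where 54.5% of all genes were called, with PLCG2, a phospholipase, down by 1.03 (adjusted p = 1.43e-05, limma). PLCG2 was also low, with means under enzalutamide of 0.278 RPKM in siControl cells and 0.0864 RPKM in siGATA2 cells.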

How the data were processed

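The 8 genes, the gene lists and the tests were chosen with earlier results of these data known. For the ligand experiment the authors deposited estimated counts per gene, made with TopHat2 (version 2.0) and Partek on hg19 per the submitters' processing notes, without normalization; they need not be whole and were rounded. The vehicle table has 4 columns, 3 of them named replicate 1 with different header sets. Compared pairwise, these 3 gave a chi-square per gene of 1.53 to 1.56 on average (sampling noise gives 1), against 3.56 to 3.74 when set against replicate 2. They were summed as 1 sample. Columns not used numbered 0.

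For the siRNA experiment the authors deposited RPKM values, although the plan assumed counts and the tests were therefore changed to limma. Depth is known only in relative terms, from the steps between low values.

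Ligand counts were tested with edgeR 4.0.16 (quasi-likelihood, TMM factors, default filter; 15555 genes, 5 conditions in 1 model). For the RPKM values, limma 3.58.1 was run with its trend option after adding 0.1 RPKM and taking log2 (20369 genes above 0 in at least 3 libraries, 4 conditions in 1 model), a scale that understates fold changes of low genes. P-values were Benjamini-Hochberg adjusted over all genes tested. Both steps were tested on simulated data. Alternatives were DESeq2 1.42.0, other scalings, filters, pseudocounts and samples, the replicate block, the header set as a term and the call rule of the study. The last 2 were chosen after seeing the data. R 4.3.3, Python 3.11.15 and matplotlib 3.10.9 were used.

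The genes named are the 8 channels, other TRP genes called against vehicle or siControl, partners called with an absolute log2 fold change of at least 1 in any comparison plus the TCAF, STIM and ORAI genes, and the 5 genes most correlated with TRPM8 and with TRPV6. Deviations of same-numbered libraries correlated at -0.048 to 0.063 in the ligand experiment and at -0.342 to 0.28 in the siRNA experiment. The comparison of siGATA2 with siControl under enzalutamide was the only one with all 3 pairs above 0.1 (0.113, 0.241 and 0.148), so there the blocked value is given where it changes a call. What the siRNA replicates share is not stated, so their p-values may measure technical spread only. The values of some genes of the marker and partner lists are not reported here. Gene positions are from GENCODE release 29 (GRCh38), and promoter sequences were found for all 8 genes.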

Additional observations from a re-analysis of the deposited data

Results flagged for a closer look

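For 3 of the 6 tested channels the response to enzalutamide differed between siGATA2 and siControl cells in the test of the difference itself, as it did for 25.8% of all genes. The log2 difference was -0.35 for TRPM4, -0.48 for TRPC1 and 0.56 for TRPV1 (limma). In each case the response in siControl cells was the larger one in size. TRPC1 in siGATA2 cells with vehicle (0.926 RPKM) was already above its siControl level with enzalutamide (0.819 RPKM), and TRPV1 with siGATA2 and vehicle (0.962 RPKM) lay between its siControl levels with vehicle (1.28 RPKM) and enzalutamide (0.793 RPKM).

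For 3 of the 6 channels the DHT libraries of 24 h differed from those of 4 h, as they did for 49.8% of all genes. The DHT libraries were compared directly, and with no time given for vehicle an effect of time alone was not tested. The log2 difference was 0.66 for TRPM2, -1.0 for TRPC1 and 0.12 for TRPM4 (adjusted p = 3.13e-07, 0.0428 and 0.0487, edgeR). Both times share the vehicle libraries, and the 24 h libraries were each in another header set than those of 4 h. The TRPC1 call was lost without DHT 24 h replicate 1, DHT 4 h replicate 1, enzalutamide 24 h replicate 1 or enzalutamide 24 h replicate 2. It was also lost with DESeq2 (adjusted p = 0.141), and in edgeR with the replicate block (0.0522) or the header set as a term (0.0711). The TRPM4 call was lost without any 1 library of DHT, vehicle or 24 h enzalutamide (0.057 to 0.269, edgeR), and with DESeq2 (0.0554), the replicate block (0.0575), the set as a term (0.0973), plain library size (0.189), no filter (0.0517), the stricter filter (0.0607) or separate vehicle columns (0.0526).

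TRPV6 was higher with enzalutamide in every siControl library and lower in every siGATA2 library, a log2 difference of -0.55 between the responses. Most of it was the rise of 0.46 in siControl cells. In siGATA2 cells the change was -0.08 (standard error 0.0463), with enzalutamide libraries up to 2.892 RPKM and vehicle libraries from 2.916 RPKM. The difference between the responses was not tested, because TRPV6 was chosen with its values known.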

How the results depend on the processing

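Of 1985 log2 fold changes of the 8 channels recomputed under the alternatives, 1865 kept their side of the threshold or moved by less than 1 SD, 60 lost a call, 23 gained one, 37 values of TRPM8 or TRPV6 moved by more, and no called value changed sign. Counts below are of the 6 tested channels called. With the study's rule (more than 2-fold, unadjusted p below 0.05) the count was 1 in place of 2 for enzalutamide at 4 h (TRPV3), 1 in place of 3 for DHT at 24 h (TRPC1), 1 in place of 4 for DHT against enzalutamide at 24 h (TRPC1), and 0 in place of 2 for enzalutamide at 24 h, 3 for DHT at 24 h against 4 h, 1 for DHT against enzalutamide at 4 h, 5 for enzalutamide in siControl, 4 and 2 for siGATA2 in vehicle and in enzalutamide, and 3 for the interaction. For DHT at 24 h against 4 h it was 1 in place of 3 with DESeq2 and with at least 1 CPM in 2 samples. The same count came with the replicate block and with the header set as a term. For DHT at 4 h it was 1 (TRPM7) in place of 0 with no filter, with only the groups compared and with the vehicle columns separate. For DHT against enzalutamide at 4 h it was 0 with only the groups compared and with the set as a term. For siGATA2 under enzalutamide the replicate block gave 1 in place of 2. The block changed no other count by over 1.5 times. With 1 library left out, counts ran from 2 to 3 for enzalutamide at 4 h and at 24 h, 0 to 1 for DHT at 4 h, 1 to 3 for DHT at 24 h and for 24 h against 4 h, 0 to 0 for enzalutamide at 24 h against 4 h, 0 to 2 and 2 to 4 for DHT against enzalutamide at 4 h and 24 h, 4 to 5 and 0 to 0 for enzalutamide in siControl and siGATA2, 3 to 4 and 1 to 3 for siGATA2 in vehicle and in enzalutamide, and 3 to 4 for the interaction. The siGATA2 difference of TRPM8 in vehicle was -3.89 with a pseudocount of 0.01 and -0.33 with 1, against -1.76. With 2 libraries per ligand condition and 4 to 20 counts behind the lowest values, changes of TRPC1, TRPV3 and TRPM8 are the least precise.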

Other observations

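The level of a channel in the ligand experiment could not be carried over to the siRNA experiment. The ratio of mean CPM in vehicle to mean RPKM in siControl cells with vehicle was 0.29 for TRPV3, 1.07 for TRPV6 and 1.11 for TRPC1, against 3.37 to 13.4 for TRPM4, TRPV1, TRPM8, TRPM2 and TRPM7. TRPV3 was 0.307 CPM in the first experiment and 1.06 RPKM in the second. What the ratio reflects beyond gene length was not tested.

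TRPM2 and its antisense gene TRPM2-AS were called in opposite directions at 24 h of DHT, by log2 fold changes of 0.53 and -0.31, and in siControl cells with enzalutamide, by -0.35 and 0.25 (adjusted p of TRPM2-AS = 0.0184, limma).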
